A study of Mus musculus with 4 samples.

Results

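The genes described here are 30 named genes of cholesterol synthesis, its control and cholesterol transport, out of 41288 genes in the table of transcript levels. They were chosen by name from what is known of the pathway, with earlier results of these data known, and all 30 had a row. Of these, 18 encode enzymes of synthesis (7 of the mevalonate steps and 11 from squalene onward), and 12 encode regulators, carriers, an efflux pump pair and the LXR receptors. RNA was sequenced from MC3T3-E1 cells, a mouse pre-osteoblastic line from skull, wild type in genotype per the labels. The 4 groups, each 1 library, were an untreated control, cells under mechanical tensile strain (2500 microstrain at 0.5 Hz for 1 h per day), cells switched to medium taken from PC-3 cultures, an established line of human prostate cancer, and cells that received both treatments. All cells were grown in DMEM with fetal bovine serum, and the labels describe the conditioned medium as replacing the medium at confluence. Neither the length of treatment nor the lipid content of either medium is stated in the labels, and no group received medium conditioned by another cell type.

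Cells make cholesterol from acetyl-CoA through mevalonate, farnesyl diphosphate and squalene. The transcription factor SREBP2, escorted by SCAP, switches these enzyme genes on when membrane sterol runs low, and INSIG proteins hold the pair in the endoplasmic reticulum when sterol is plentiful. Sterol excess is handled by the LXR receptors, which drive the export pumps ABCA1 and ABCG1, while NPC1 and NPC2 release cholesterol from lysosomes. In bone the pathway is known as the target of nitrogen-containing bisphosphonates, which block the enzyme encoded by Fdps.

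Every difference below lies between single libraries, with no replicate check and no test. Depth was 10007546 to 10997085 counts per library. Levels are RPKM, the authors' read counts scaled to gene length and library total. Folds are ratios of count shares, the bracketed 95% intervals are exact (Clopper-Pearson), and intervals cover counting error only. Log2 ratios had 0.5 added to each count. A gene was counted as lower when its count share was at most 80% of that in the other library, and as higher when it was at least 125%, provided that the higher of the 2 libraries held 30 counts or more (the fold rule). The share of all genes past the same rule is given beside each count. The table heads its columns O, L, T and LT: LT was read as both treatments, O as control, L as loading and T, by elimination, as conditioned medium. Should T mean tensile instead, every statement on strain would apply to conditioned medium and the reverse, except in the comparison of both treatments against control.

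In the marker check for osteoblasts, Runx2, Sp7, Col1a1, Col1a2, Spp1 and Sparc reached 1 RPKM in at least 1 library, 6 of 9 listed; Alpl, Bglap and Ibsp did not. The 9 markers summed to 3658 RPKM in the control, 5114 with strain, 5822 in conditioned medium and 5950 with both. Of 6 adipocyte markers none reached 1 RPKM, with Adipoq and Lep at 0 counts throughout and a summed level of 0.142 to 0.956 RPKM. Macrophage markers summed to 7.58 RPKM in the control, 7.06 with strain, 13.9 with conditioned medium and 12.3 with both. Among those 6, only Cd14 reached 1 RPKM and Ptprc was at 0. Chondrocyte markers (2 of 5 at 1 RPKM, Col2a1 and Sox9) summed to 35.2, 31, 26.2 and 20.8 RPKM in the same order. Of 4 endothelial markers none reached 1 RPKM, and of 4 skeletal muscle markers only Acta1 did, with sums of 2.74, 2.27, 1.59 and 1.18 RPKM. The part of these marker levels in the differences below was not tested.

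The synthesis genes were lower in conditioned medium, with and without strain, and close to level between strained and unstrained cells. Together the 18 genes took 0.1033% of counts in the control (0.1014 to 0.1052) and 0.0989% with strain (0.0970 to 0.1008). Their share was 0.0769% in conditioned medium (0.0753 to 0.0786) and 0.0763% with both treatments (0.0746 to 0.0780). For 17 of the 18 genes both conditioned-medium libraries lay below both libraries in ordinary medium, an order that 32.8% of the 12177 genes with at least 30 counts showed. Ebp alone had the opposite order, shown by 19.5% of all genes. These orders were the same for the 18 genes under TMM and DESeq2 scaling. Of all genes, 27.3% (TMM) and 26.6% (DESeq2) then showed the first order, and 25% and 25.6% the opposite one.

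**Figure D1:**
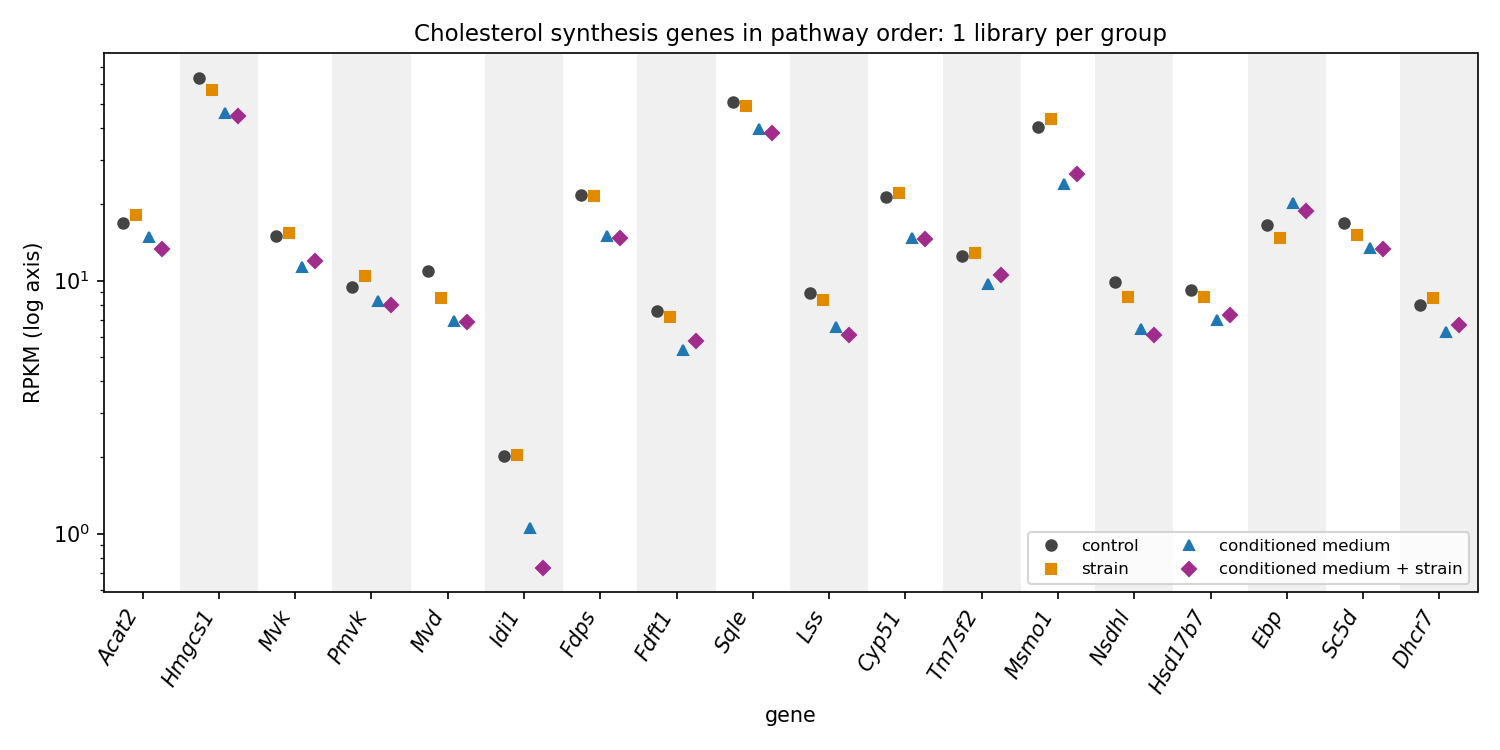
RPKM (log axis) of the 18 synthesis genes in pathway order, 1 point per library, for control, strain, conditioned medium and both. In 17 genes the 2 conditioned-medium points lie below the 2 others, and in Ebp they lie above.

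Of the mevalonate steps, Hmgcs1 (the synthase that makes HMG-CoA) was the most abundant, with 63.5 RPKM in the control, 56.6 with strain, 45.9 in conditioned medium and 44.7 with both. Its fold was 1.38 lower in conditioned medium than in the control (1.30 to 1.47) and 1.27 lower with both treatments than with strain (1.19 to 1.35). The strain library lay between the control and the conditioned-medium pair. Idi1, the isomerase that interconverts the building blocks of the chain, was the scarcest, at 2.03, 2.05, 1.05 and 0.732 RPKM in the same order of libraries, on 64, 63, 32 and 21 counts. As ratios of count shares, its differences in these comparisons were the largest among the 28 of the 30 genes with 30 counts. Its share in conditioned medium was 0.516 of that in the control (0.326 to 0.8), and with both treatments it was 2.8-fold lower than with strain (1.69 to 4.83), wide intervals that follow from so few counts.

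Fdps, which makes farnesyl diphosphate, had 21.8 RPKM in the control, 21.6 with strain, 15.0 in conditioned medium and 14.8 with both. The conditioned-medium pair thus lay below the other pair, with folds of 1.45 lower without strain (1.23 to 1.72) and 1.46 lower with it (1.23 to 1.74). Mvd, the decarboxylase that yields isopentenyl diphosphate, differed in pattern: 10.9 RPKM in the control, 8.51 with strain, 6.95 in conditioned medium and 6.86 with both. It was the only synthesis gene past the rule for strain against control, 1.28-fold lower (1.04 to 1.57), and it was 1.57-fold lower in conditioned medium (1.26 to 1.95). With both treatments against strain it stayed under the rule at 1.24-fold lower (0.98 to 1.57). Mvk (mevalonate kinase) had 15.0, 15.4, 11.3 and 12.0 RPKM and was 1.33-fold lower in conditioned medium (1.11 to 1.59). The smallest differences of this segment for conditioned medium against control were those of Acat2, the thiolase of the first step, at 16.9, 18.1, 14.9 and 13.3 RPKM, and Pmvk (phosphomevalonate kinase), at 9.44, 10.4, 8.31 and 8.03. Both stayed under the rule in conditioned medium against control and passed it with both treatments against strain.

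From squalene onward, Msmo1, the oxidase that starts removal of methyl groups from the sterol ring, stood out. It had 40.4 RPKM in the control, 43.7 with strain, 24.0 in conditioned medium and 26.4 with both. The fold was 1.69 lower in conditioned medium than in the control (1.5 to 1.89) and 1.66 lower with both than with strain (1.48 to 1.86). Sqle, the squalene epoxidase and a rate-limiting step, was the most abundant of the segment at 50.8, 49.1, 39.9 and 38.4 RPKM. Its folds were smaller, 1.27 lower (1.18 to 1.37) and 1.28 lower (1.18 to 1.38).

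Cyp51, the lanosterol demethylase, had 21.5 RPKM in the control, 22.1 with strain, 14.8 in conditioned medium and 14.6 with both, with folds of 1.45 lower (1.32 to 1.60) and 1.51 lower (1.37 to 1.67). Nsdhl, a dehydrogenase of the demethylation complex, had 9.84, 8.58, 6.43 and 6.08 RPKM and folds of 1.53 lower (1.24 to 1.89) and 1.41 lower (1.13 to 1.77). Both genes had their 2 lowest libraries in conditioned medium. Lss, which closes the ring to lanosterol, had 8.94, 8.41, 6.56 and 6.10 RPKM. Fdft1 (squalene synthase) had 7.60, 7.21, 5.32 and 5.78 RPKM. Both also had the 2 conditioned-medium libraries lowest. Fdft1 shares 774 bases with Ctsb on the opposite strand, a gene with 15224 to 18359 counts; the strand setting of the counting is not given, so reads of the pair in that stretch may not be told apart. Lss overlaps 4930483K19Rik, an antisense gene with 27 to 47 counts, and Tm7sf2 shares 9 bases with Vps51 on the same strand.

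The remaining reductases and the desaturase had smaller differences than Msmo1. Tm7sf2 (a sterol reductase) had 12.5, 12.9, 9.71 and 10.5 RPKM, Hsd17b7 (a sterol ketone reductase) 9.17, 8.59, 6.97 and 7.30, Sc5d (a desaturase) 16.9, 15.2, 13.4 and 13.3, and Dhcr7, the reductase that completes cholesterol, 8.03, 8.56, 6.28 and 6.66. Each was lower in both conditioned-medium libraries, by a log2 ratio of -0.34 to -0.39 without strain and -0.18 to -0.36 with it. Ebp, the isomerase between the demethylation steps and Sc5d, went the other way: 16.6 RPKM in the control, 14.7 with strain, 20.3 in conditioned medium and 18.9 with both. It was 1.22-fold higher in conditioned medium than in the control (1.05 to 1.42) and 1.29-fold higher with both than with strain (1.10 to 1.52). No other gene of the table overlaps Ebp in position.

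By the fold rule, 15 of the 18 synthesis genes were lower in conditioned medium than in the control and 0 were higher, where 13% of 12069 genes were lower and 9.51% higher. The median log2 ratio of the 18 was -0.43, against -0.04 over all genes tested. With both treatments against strain, 12 were lower and 1 (Ebp) was higher, where 11.9% of 11940 genes were lower and 7.71% higher. The median was -0.36 against -0.04 over all genes. These comparisons share no library, but treatment and batch cannot be told apart in either. The same 10 genes were lower in both comparisons, Hmgcs1, Mvk, Idi1, Fdps, Sqle, Lss, Cyp51, Msmo1, Nsdhl and Dhcr7, where 5.16% of 11832 genes were lower in both. Among genes with at least 100 counts, which vary less from counting, the synthesis genes gave 14 of 17 and 11 of 17 against backgrounds of 10.4% and 9.36%. Under TMM or DESeq2 scaling the first count became 12, without Sqle, Sc5d and Dhcr7 and with Ebp past the rule upward, where 10.6% (TMM) and 10.8% (DESeq2) of all genes were lower and 11.4% and 11.2% higher. The second became 11 with TMM (without Hmgcs1) and 9 with DESeq2 size factors (also without Mvk and Sqle), where 11% and 10.4% of all genes were lower. Of the 10 genes lower in both comparisons, Hmgcs1, Sqle and Dhcr7 therefore left the list under either scaling, and Mvk left it with DESeq2.

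**Figure D2:**
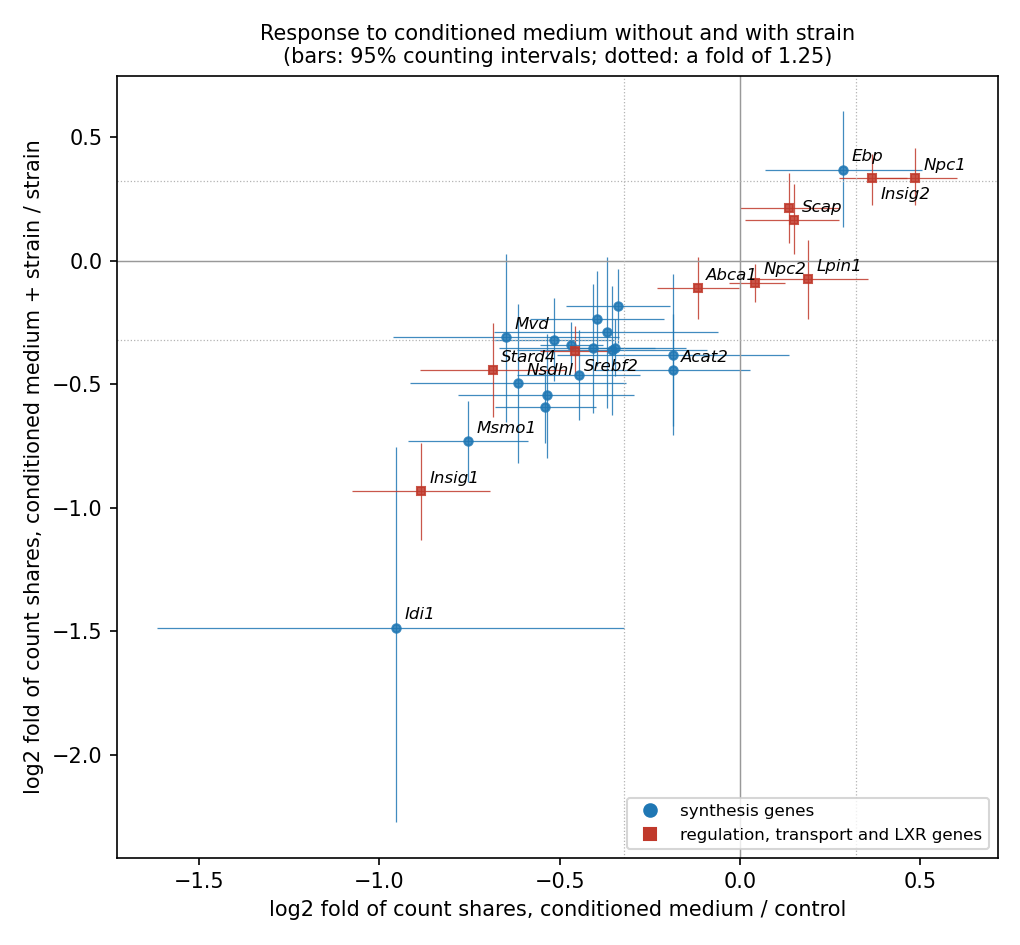
Log2 fold of count shares for conditioned medium over control (horizontal) against both treatments over strain (vertical), for the 28 genes with at least 30 counts; bars are 95% counting intervals and dotted lines the fold rule. Synthesis genes other than Ebp lie in the lower left with Insig1, Srebf2, Stard4 and, nearer the centre, Abca1. Ebp, Insig2, Npc1, Scap and Nr1h2 lie in the upper right, where Insig2 and Npc1 are past the fold rule on both axes.

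Both treatments against control, a comparison untouched by the reading of the letters L and T, gave 13 of 18 synthesis genes lower and 0 higher, where 15.4% of 12025 genes were lower and 8.42% higher. It shares a library with each comparison above, so its values are not separate from theirs. The median log2 ratio was -0.40, -0.51 for the mevalonate steps and -0.40 from squalene onward, against -0.07 over all genes. Among the synthesis genes, the largest differences were in Idi1 (2.77-fold lower, 1.67 to 4.78), Nsdhl (1.62-fold, 1.30 to 2.01), Mvd (1.59-fold, 1.27 to 1.99) and Msmo1 (1.53-fold, 1.37 to 1.72). The regulator Insig1 was 1.82-fold lower (1.59 to 2.09). At 2-fold or more, Idi1 was the only one of the 30 genes, where 1.11% of all genes were that much lower. The corresponding counts were 0 of 18 synthesis genes for conditioned medium against control (0.812% of all genes) and 1, again Idi1, for both treatments against strain (0.955%). Of all genes past the fold rule 64.6% were lower, but 49.4% with TMM and 48.6% with DESeq2 scaling; there the synthesis count was 10, without Acat2, Hsd17b7 and Sc5d, where 10.8% and 10.7% of all genes were lower.

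Promoters of these genes are shown because most synthesis genes were lower together. Of the 30 genes, 24 had a window in the RefSeq promoter table (GRCm38.p6), running from 250 bases before to 50 after an annotated start; 15 were synthesis genes. The CCAAT box, the site of NF-Y, which is known to act with SREBP at sterol genes, was searched as CCAAT on both strands. It was present in 14 of the 15 synthesis genes (93.3%), all but Acat2, and in 41.1% of the 27025 genes in the promoter table. A gene was counted when any of its windows held the motif. The genes in the promoter table were not limited to those with counts in these cells. In Dhcr7 the box lay only in the window starting at chr7:143829964, whereas the deposited position of the gene starts at 143823167. None of the 3 efflux and LXR genes with a window (Abca1, Nr1h2 and Nr1h3) held a CCAAT box, whereas 4 of the other 6 regulators and carriers did. Ebp, the synthesis gene that was higher, held the box as well, as did Insig2, which was higher, and Npc2, which was level. The part of the box in the differences was not tested.

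The sterol regulatory element core was searched as TCACNCCAC on both strands and was found in Hmgcs1 alone of the 24 genes, and in 1.44% of all genes. The shorter CACNCCAC, which also matches inside that core, was in Hmgcs1, Acat2 and Insig1, and in 7.12% of all genes. An E-box, CACGTG, which SREBP proteins can also bind, was in Insig1, Scap, Abca1, Hsd17b7, Sc5d and Dhcr7, and in 8.09% of all genes. For the LXR element DR4, only exact copies were searched, with the half-site AGGTCA as a direct repeat and 4 bases between. Such a copy was in none of the 24 and in 0.0148% of all genes. A copy this rare would be found in few sets of 24 genes, and elements with altered half-sites were not searched. A match describes letters in a window and is not a measured site, and a missing match does not show that a site is absent. The windows below, 5′ to 3′ on the gene's strand, are those of the most abundant mevalonate-step gene, of Msmo1 and Insig1, the squalene-onward gene and the regulator with the largest differences in both comparisons of conditioned medium, of the exception Ebp and of the pump gene Abca1. Capitals mark the sterol regulatory element core, the CCAAT box in either direction (CCAAT or ATTGG) and the E-box; the start lies 50 bases from the right end. Their positions are chr13:119690101-119690400 on the plus strand for Hmgcs1, chr8:64733529-64733828 on the minus strand for Msmo1, chr5:28071162-28071461 on the plus strand for Insig1, chrX:8193463-8193762 on the minus strand for Ebp and chr4:53159846-53160145 on the minus strand for Abca1.
Hmgcs1: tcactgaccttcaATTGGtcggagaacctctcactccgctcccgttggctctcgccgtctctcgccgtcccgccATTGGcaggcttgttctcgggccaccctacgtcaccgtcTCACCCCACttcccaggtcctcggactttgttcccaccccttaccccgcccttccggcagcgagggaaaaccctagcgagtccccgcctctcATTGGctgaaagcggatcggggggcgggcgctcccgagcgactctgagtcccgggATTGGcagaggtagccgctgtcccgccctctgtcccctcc
Msmo1: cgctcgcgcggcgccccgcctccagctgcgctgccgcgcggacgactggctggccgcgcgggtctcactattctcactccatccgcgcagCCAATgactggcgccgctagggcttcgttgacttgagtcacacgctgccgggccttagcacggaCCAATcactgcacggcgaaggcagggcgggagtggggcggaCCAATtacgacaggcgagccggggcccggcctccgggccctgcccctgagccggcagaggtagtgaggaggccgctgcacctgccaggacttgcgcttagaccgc
Insig1: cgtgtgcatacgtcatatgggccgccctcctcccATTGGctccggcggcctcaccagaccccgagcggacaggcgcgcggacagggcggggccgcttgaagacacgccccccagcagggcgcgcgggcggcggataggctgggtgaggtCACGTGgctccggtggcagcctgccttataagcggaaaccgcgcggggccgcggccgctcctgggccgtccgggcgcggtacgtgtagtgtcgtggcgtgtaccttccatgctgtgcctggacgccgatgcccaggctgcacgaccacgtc
Ebp: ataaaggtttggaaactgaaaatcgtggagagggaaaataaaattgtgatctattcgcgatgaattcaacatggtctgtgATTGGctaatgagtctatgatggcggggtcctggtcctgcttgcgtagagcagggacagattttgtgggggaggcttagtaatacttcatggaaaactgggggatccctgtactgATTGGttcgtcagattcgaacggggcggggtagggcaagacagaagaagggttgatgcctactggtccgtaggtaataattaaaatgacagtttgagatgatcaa
Abca1: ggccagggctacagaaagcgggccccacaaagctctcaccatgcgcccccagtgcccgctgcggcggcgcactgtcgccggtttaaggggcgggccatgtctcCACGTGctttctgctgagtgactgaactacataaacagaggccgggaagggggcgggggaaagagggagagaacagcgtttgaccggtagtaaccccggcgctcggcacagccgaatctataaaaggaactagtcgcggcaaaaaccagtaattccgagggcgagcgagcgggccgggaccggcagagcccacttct

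In these windows Hmgcs1 carries 4 CCAAT boxes and the sterol element core starting 137 bases before its start, and Msmo1 carries 3 boxes, all within 160 bases of the start. Insig1 has a box at 216 and an E-box at 101 bases before the start, and Ebp has boxes at 170 and 55. Abca1 has an E-box at 147 bases before the start and no CCAAT box.

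The regulators split. Insig1, itself an SREBP target whose protein retains SCAP, had 22.3 RPKM in the control, 23.4 with strain, 12.1 in conditioned medium and 12.2 with both. It was 1.84-fold lower in conditioned medium than in the control (1.62 to 2.11) and 1.91-fold lower with both than with strain (1.67 to 2.19), the largest difference in each of these comparisons among those of the 30 genes with 100 counts or more. Its paralog Insig2, which is known to be less dependent on SREBP, ran opposite at 40.3, 37.9, 52.0 and 47.6 RPKM, 1.29-fold higher (1.21 to 1.38) and 1.26-fold higher (1.17 to 1.35). Insig2 had the higher RPKM of the pair in every library, and the gap was wider in the conditioned-medium libraries.

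Srebf2, which encodes SREBP2, had 32.7 RPKM in the control, 33.1 with strain, 23.9 in conditioned medium and 25.7 with both. Its fold was 1.37 lower in conditioned medium (1.28 to 1.47) and 1.29 lower with both against strain (1.2 to 1.38). Scap, the escort, had 16.8, 16.6, 18.6 and 18.7 RPKM and stayed under the rule, at 1.11-fold higher (1.01 to 1.21) and 1.12-fold higher (1.02 to 1.24). Srebf2 was therefore lower and Scap slightly above in both conditioned-medium libraries.

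Stard4, a cytosolic sterol carrier under SREBP control, had 9.25 RPKM in the control, 9.69 with strain, 5.75 in conditioned medium and 7.14 with both. It was 1.61-fold lower in conditioned medium than in the control (1.40 to 1.85) and 1.36-fold lower with both than with strain (1.19 to 1.55). The library with both treatments lay between the conditioned-medium library and the other two. Lpin1, a phosphatidate phosphatase also known as an SREBP target, did not share the pattern, with 8.37, 9.78, 9.56 and 9.29 RPKM and the control lowest.

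Of the lysosomal exporters, Npc1, the membrane protein, had 18.7 RPKM in the control, 20.3 with strain, 26.3 in conditioned medium and 25.6 with both. It was 1.40-fold higher in conditioned medium than in the control (1.30 to 1.52) and 1.26-fold higher with both than with strain (1.17 to 1.37). Npc2, its soluble partner and the most abundant of the 30 genes, was level at 79.1, 83.9, 81.7 and 78.9 RPKM. Npc1 overlaps 3110002H16Rik on the opposite strand, a gene with 321 to 384 counts against 1082 to 1473 for Npc1.

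Of the efflux pumps only Abca1 had enough counts to compare. Abca1, the pump that loads cholesterol onto apolipoproteins, had 11.4 RPKM in the control, 10.3 with strain, 10.6 in conditioned medium and 9.5 with both. Its values in conditioned medium and in ordinary medium overlapped, and its fold of 1.08 lower against control (1.00 to 1.17) stayed under the rule, as did 1.2 lower with both treatments against control (1.11 to 1.31). Abcg1, its partner pump, had 1 count in the control and 1 in conditioned medium and 0 in the other two libraries; the upper limit at 0, taken as 3 counts, was 0.0481 RPKM with strain and 0.0515 RPKM with both. Nr1h2 (LXR beta) had 36.4, 34.2, 40.2 and 39.6 RPKM, and Nr1h3 (LXR alpha) 1 or 2 counts per library, at which differences were not detectable. Nr1h3 shares 18 bases with Acp2 on the opposite strand. Per length, Nr1h2 was thus far above Nr1h3 in every library.

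By count, 3 of the 10 regulation, transport and LXR genes with 30 counts were lower in conditioned medium than in the control (Insig1, Srebf2 and Stard4) and 2 were higher (Insig2 and Npc1), beside 13% and 9.51% of all genes. The same 5 genes passed with both treatments against strain, and over all genes 5.16% were lower and 4.28% higher in both comparisons. With both treatments against control the same 3 were lower and Npc1 was higher, beside 15.4% and 8.42% of all genes; under TMM or DESeq2 scaling Srebf2 and Stard4 dropped under the rule there.

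**Figure D3:**
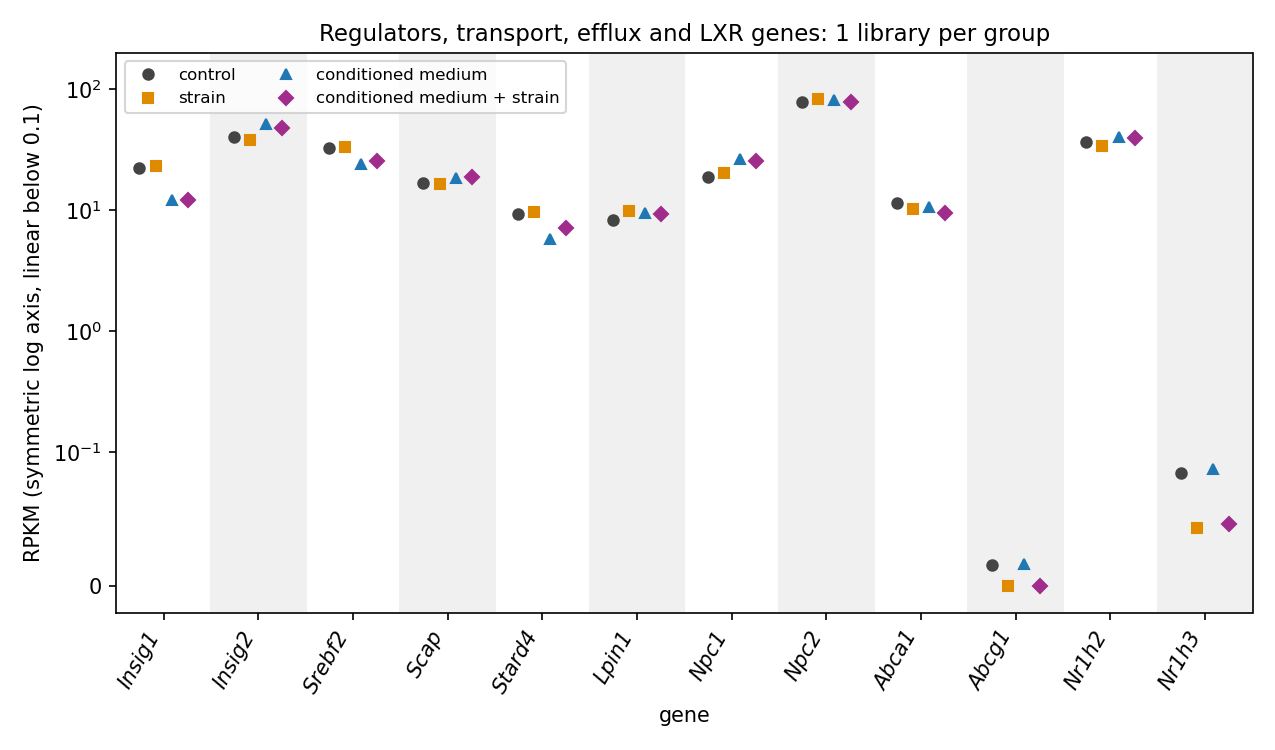
RPKM of the 12 regulation, transport, efflux and LXR genes, 1 point per library, on an axis that is logarithmic above 0.1 and linear below. Insig1, Srebf2 and Stard4 are lower and Insig2 and Npc1 higher in the 2 conditioned-medium libraries, while Abcg1 and Nr1h3 lie at or near 0.

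Strain by itself left the synthesis genes near level. Against control, log2 ratios of the 18 ran from -0.35 (Mvd) to 0.15 (Pmvk) with a median of -0.03, the same as over all genes. By the rule 1 gene (Mvd) was lower and 0 higher, where 7.9% of 12025 genes were lower and 6.58% higher; with TMM or DESeq2 scaling 0 were lower, and the share of lower genes among all past the rule went from 54.6% to 41% and 43.1%. In conditioned medium, strain gave log2 ratios from -0.51 (Idi1, on 21 against 32 counts) to 0.14 (Msmo1), with a median of -0.02. There 1 gene was lower and 0 higher, where 5.46% of 11910 genes were lower and 3.5% higher; the lower share of all calls was 60.9%, and 49.6% with DESeq2 scaling. None of the 10 other genes with 30 counts passed the rule in either strain comparison as scaled to totals; Stard4, 1.24-fold higher with strain in conditioned medium (1.07 to 1.44), passed it with TMM or DESeq2 scaling.

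The strain response in conditioned medium minus that in ordinary medium ranged, over the 28 genes with 30 counts, from -0.52 (Idi1) to 0.34 (Mvd) on the log2 scale, with a median of 0.01. These differences have no test. For Insig1 the difference was -0.05, for Cyp51 -0.05 and for Msmo1 0.02, so that the conditioned-medium difference of these genes was nearly the same size with and without strain. Other genes differed more, among them Lpin1 (-0.27), Acat2 (-0.26), Fdft1 (0.20) and Stard4 (0.24).

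**Figure D4:**
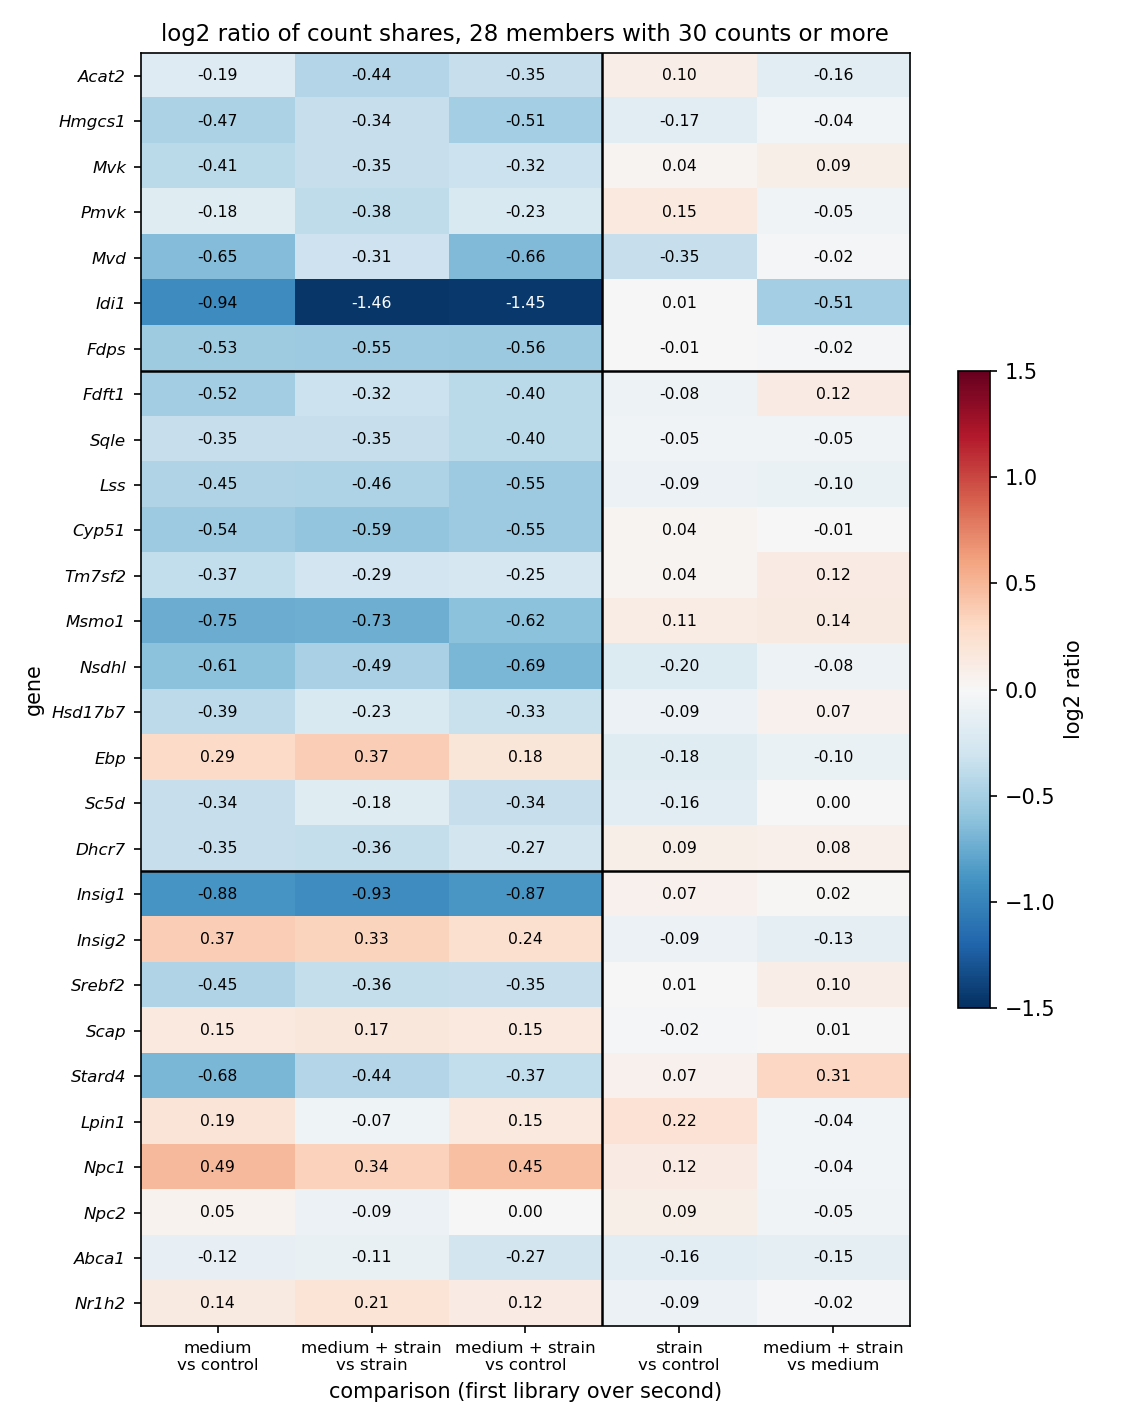
Log2 ratio of count shares for the 28 genes with at least 30 counts (rows, in pathway order, lines parting mevalonate steps, squalene-onward steps and other genes) in 5 comparisons (columns). The 3 comparisons of a conditioned-medium library with one in ordinary medium are negative for all synthesis genes but Ebp, while the 2 comparisons of strain, without and with conditioned medium, run from -0.51 (Idi1) to 0.31 (Stard4).

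Further genes of the pathway were taken from lists chosen for their function, also with earlier results of these data known. In the list of other SREBP and sterol-sensing genes, 2 of 23 were lower in both comparisons of conditioned medium and 0 were higher, beside 5.16% and 4.28% of all genes, so the count is near the background. They were Scd2, a stearoyl-CoA desaturase, at 301 RPKM in the control, 287 with strain, 228 in conditioned medium and 223 with both, and Fads1, a fatty acid desaturase, at 82.6, 85.3, 65.8 and 67.7. Fads1 was close to the threshold and was under it in both comparisons with TMM or DESeq2 scaling. Both had their 2 lowest libraries in conditioned medium. The list as a whole was near level, with a median log2 ratio of -0.07 without strain and -0.03 with it.

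Among other sterol transport, storage and uptake genes, 3 of 25 were higher in both comparisons and 0 were lower, beside 4.28% and 5.16% of all genes. Lrp1, a large endocytic lipoprotein receptor, had 236 RPKM in the control, 273 with strain, 460 in conditioned medium and 452 with both, 1.95-fold higher (1.93 to 1.97) and 1.66-fold higher (1.64 to 1.68). Scp2, a sterol carrier protein, had 27.0, 27.7, 43.5 and 39.3 RPKM. Lrp8, a receptor of the same family as Lrp1, had 1.71, 1.80, 2.36 and 2.38. In each of the 3 both conditioned-medium libraries lay above the others.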

How the data were processed

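RNA sequencing of 4 libraries was analysed from 1 deposited table. Per the file headers, the authors deposited whole-number read counts and RPKM per gene; recomputing RPKM from counts, gene lengths and column totals matched it to a relative 5.05e-06 at most. The submitters' processing notes name HISAT2 and the build mm9, yet 27 of the 30 genes start at the GRCm38.p6 RefSeq position, so positions are read as GRCm38. No source used here gives the counting tool, strand setting, versions or handling of multiply mapped reads. Columns were assigned from their letters, never from values.

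From the counts, shares of library totals, folds and exact intervals were computed (Python 3.11.15, scipy 1.17.1); with 1 library per group no p-value was computed. Alternatives were edgeR 4.0.16 TMM and DESeq2 1.42.0 size factors for scaling, log2(RPKM + 1) and log2(RPKM + 0.1), no count minimum or 100, and folds of 1.5 and 2. Members and gene lists were chosen with earlier results of these data known; the order of the 4 libraries, the E-box and shorter CACNCCAC searches, the promoters printed and the rescaled calls of genes outside the 30 were chosen after values were seen. All 30 genes are named; of the other lists, genes past the rule in both conditioned-medium comparisons.

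In 20 of the 24 genes with a promoter window, bases just after the start were found in a GENCODE transcript of that gene on the same strand; Hmgcs1 was not among them.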

Additional observations from a re-analysis of the deposited data

How the results depend on the processing

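No paired analysis was possible because each group had 1 library. Each of the 28 genes with 30 counts stayed within its counting interval in every comparison under TMM, DESeq2, log2(RPKM + 1) and log2(RPKM + 0.1), 560 values in all. Signs changed in 16 of these, all with a log2 ratio within 0.02 of 0. They changed in 0 of the 228 that belong to genes past the fold rule, an outcome fixed in advance. Rescaling moved log2 ratios by at most 0.073, and a constant added to RPKM cannot reverse an order. The synthesis median moved beyond the interval of the summed counts to -0.33 (TMM) and -0.32 (DESeq2) for both treatments against control, to -0.38 (TMM) for conditioned medium against control, and to 0.02 (TMM) and 0.01 (DESeq2) for strain against control. At folds of 1.5 and 2 the lower synthesis genes numbered 4 and 1 for both treatments against control, 4 and 0 for conditioned medium against control, 3 and 1 for both against strain, and 0 and 0 in each strain comparison. Over all genes 4.84%, 4.13% and 4.31% were 1.5-fold lower in the first 3 of these and 2.04% and 1.23% in the strain comparisons, and 2-fold lower genes made up 0.26% to 1.11%. The count of 1 became 0 for strain against control with TMM, DESeq2 or log2(RPKM + 1), and for both against conditioned medium with log2(RPKM + 1) or a minimum of 100 counts. With letters L and T exchanged, conditioned medium against control would give 1 gene lower and a median of -0.03, both against strain 1 and -0.02, strain against control 15 and -0.43, and both against conditioned medium 12 and -0.36. Depth limited Idi1, Abcg1 and Nr1h3 most. By a 2-fold difference on log2(RPKM + 1) with at least 1 RPKM, 0 of 28 genes passed in any comparison, beside 1.06% to 1.41% of all genes lower and 0.819% to 1.42% higher. Since each group has 1 library, treatment and batch cannot be told apart.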

Other observations

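Oxysterol enzymes and LXR targets were measured apart from the 30 genes. Of 6 oxysterol genes listed, 3 had 30 counts in both comparisons of conditioned medium. In both comparisons 1 was lower and 1 higher, beside 5.16% and 4.28% of all genes. Hsd3b7 stayed under the rule, at 1.09-fold higher without strain (0.937 to 1.26) and 1.02-fold higher with it (0.881 to 1.19). Ch25h, which makes the oxysterol that restrains SREBP processing and activates LXR, had 4.17 RPKM in the control, 3.31 with strain, 1.73 in conditioned medium and 1.70 with both, on 62, 48, 25 and 23 counts. It was 2.40-fold lower in conditioned medium than in the control (1.49 to 3.99) and 1.95-fold lower with both treatments than with strain (1.16 to 3.36). Cyp46a1, a cholesterol hydroxylase, had 0.990, 0.857, 1.24 and 1.63 RPKM on 27 to 48 counts and was 1.26-fold higher (0.768 to 2.07) and 1.90-fold higher (1.16 to 3.17), the first interval including 1. Of the 9 other LXR targets and partners with 30 counts, 2 were higher in conditioned medium than in the control (9.51% of all genes) and 0 in the comparison of both treatments with strain (7.71% of all genes), with medians of -0.02 and 0.04. None of 9 isoprenoid branch genes passed the rule in any of the 5 comparisons. Over all genes, 5.46% to 15.4% were lower and 3.5% to 9.51% higher, so with 9 genes this count is near the background.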
